A study of Mus musculus with 2 samples.

Results

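The genes described here encode subunits of the GABA-A receptor, the chloride channel through which GABA acts as a fast transmitter. The 7 subunit genes analysed were taken by name from a list: the alpha subunit genes Gabra2, Gabra3, Gabra4 and Gabra5, the beta subunit genes Gabrb1 and Gabrb2, and the gamma subunit gene Gabrg1. They are 7 of the 55536 genes in the M21 gene tables, listed by gene family and not by a threshold on any value. The material was forebrain of untreated mice of strain B6NCrl at P0, age 0 days, and no genetic change is given in the labels. The 2 polyA RNA-seq libraries formed 1 group: pup 3 (replicate 2) and pup 1 (replicate 1), with 10 ng of RNA from 1 forebrain in each. The labels describe the replicates as different animals, although an identical donor ID stands on both, and they do not record sex. RNA was isolated with mirVana, primed with oligo-dT and converted to libraries by Nextera tagmentation.

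Subunits of the alpha, beta and gamma classes assemble into a pentamer around a pore, and GABA binds where a beta subunit meets an alpha subunit. Benzodiazepines bind where an alpha subunit meets a gamma subunit. In newborn neurons intracellular chloride is high and opening of the channel often depolarises the cell, whereas in mature neurons it inhibits. The alpha2 and alpha3 subunits are abundant in immature neurons and sit largely at synapses. The alpha5 subunit, prominent in the hippocampus, and the alpha4 subunit, prominent in thalamus and dentate gyrus, are found largely outside synapses, where they carry tonic current.

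The libraries held 41230878 expected counts in pup 3 and 40964891 in pup 1. Levels are given in TPM, a relative abundance scaled to one total in every library after division by transcript length. As a check of the labelled tissue, the 7 telencephalon markers were all detected (at 1 TPM or above) in both pups and summed to 571 TPM in pup 3 and 485 in pup 1. Markers of midbrain and hindbrain summed to 0.67 TPM in pup 3 and 1.02 in pup 1, and 3 of those 7 genes had no count in either pup. Sex-specific transcripts differed between the pups: Xist had 4428.23 counts in pup 3 and 2.17 in pup 1, and Y chromosome genes together had 3 counts in pup 3 and 7021 in pup 1.

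The coding sequence shows how the listed subunits differ at the drug site. The windows printed here surround the codon that corresponds among the 4 alpha genes to a residue of the benzodiazepine site. They are read 5′ to 3′ on the coding strand from GENCODE M21 transcripts on mm10, and capitals mark that codon. They are shown because the codon sorts the alpha genes into a pair of pharmacological classes. The position was found by searching for arginine in Gabra4 aligned with histidine in Gabra2, Gabra3 and Gabra5, so the search itself set this sorting.

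Gabra2: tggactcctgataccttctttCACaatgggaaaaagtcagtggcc
Gabra3: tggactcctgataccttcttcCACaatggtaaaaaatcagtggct
Gabra5: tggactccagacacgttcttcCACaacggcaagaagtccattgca
Gabra4: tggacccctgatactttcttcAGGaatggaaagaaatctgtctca

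The Gabra2 window lies at chr5:71014484-71014528 on the minus strand, in exon 5, and its codon 129 is CAC. The Gabra3 window lies at chrX:72501147-72501191 on the minus strand, in exon 5, with CAC at codon 154. For Gabra5 the window is chr7:57488870-57488914, minus strand, exon 6, with CAC at codon 136. CAC encodes histidine, the residue known to confer sensitivity to classical benzodiazepines such as diazepam. The Gabra4 window at chr5:71641131-71641175, minus strand, exon 4, has AGG at codon 135, which encodes arginine, the residue of diazepam-insensitive receptors. Codons were counted from the start codon, signal peptide included. Of the 45 bases in the window, Gabra2 and Gabra3 differed at 4, Gabra2 and Gabra5 at 11, and Gabra2 and Gabra4 at 13. Over the coding bases that aligned, the 6 pairs of alpha genes were 60.2% to 69.2% identical, with unaligned stretches left out.

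The beta genes differ at a codon of the pore-lining helix, where asparagine in beta2 and serine in beta1 are known to set sensitivity to loreclezole and etomidate. The position was found by searching for asparagine in Gabrb2 aligned with serine in Gabrb1. Capitals again mark the codon.

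Gabrb1: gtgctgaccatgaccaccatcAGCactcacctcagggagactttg
Gabrb2: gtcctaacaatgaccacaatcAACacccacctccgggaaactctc

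The Gabrb1 window is chr5:72121960-72122004, plus strand, exon 8, with AGC (serine) at codon 290. The Gabrb2 window is chr11:42597552-42597596, plus strand, exon 9, with AAC (asparagine) at codon 289. The windows differed at 10 of 45 bases, and the aligned coding bases of the beta genes were 71.0% identical.

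All 7 genes were detected in both pups, with values between 11.45 and 94.92 TPM. Over all 55536 genes, 26.6% were detected in both pups, and over protein-coding genes 59.5% were. Together the 7 genes summed to 174.22 TPM in pup 3 and 311.48 in pup 1, a mean of 243 ± 97.1 TPM (SD, n = 2). The sums rest on 15185.8 expected counts in pup 3 and 25830.6 in pup 1.

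Among the alpha genes, Gabra5 (ENSMUSG00000055078, chr7:57407672-57510059, minus strand) was the most abundant, with 85.67 TPM in pup 3 and 94.92 in pup 1, a mean of 90.3 ± 6.54 TPM (SD, n = 2). As a ratio between pups, Gabra5 had the smallest difference of the 7 members. Gabra5 was also the only one whose values did not overlap those of the next gene in the order. Its mean exceeded that of 91.6% of protein-coding genes.

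Gabra2 (ENSMUSG00000000560, chr5:70957597-71095849, minus strand), the alpha subunit of many synapses on axon initial segments, had 18.19 TPM in pup 3 and 80.59 in pup 1. Its mean of 49.4 ± 44.1 TPM (SD, n = 2) therefore describes neither pup. In pup 1 Gabra2 was second only to Gabra5, and in pup 3 it also stood behind Gabra4.

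Gabra4 (ENSMUSG00000029211, chr5:71569749-71658308, minus strand), the alpha subunit with arginine at the drug site, had 20.48 TPM in pup 3 and 29.02 in pup 1, a mean of 24.8 ± 6.04 TPM (SD, n = 2). Gabra3 (ENSMUSG00000031343, chrX:72432681-72656848, minus strand), the X-linked alpha gene, had 12.86 TPM in pup 3 and 29.25 in pup 1, a mean of 21.1 ± 11.6 TPM (SD, n = 2). The ranges of these alpha genes overlapped, and their order was turned round between the pups.

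Of the beta genes, Gabrb1 (ENSMUSG00000029212, chr5:71658113-72149037, plus strand) had 13.99 TPM in pup 3 and 34.74 in pup 1, a mean of 24.4 ± 14.7 TPM (SD, n = 2). Gabrb2 (ENSMUSG00000007653, chr11:42419757-42629028, plus strand), a beta subunit of many adult synaptic receptors, had 11.45 TPM in pup 3 and 21.36 in pup 1, a mean of 16.4 ± 7.01 TPM (SD, n = 2). The beta genes overlapped in range. Gabrg1 (ENSMUSG00000001260, chr5:70751047-70842617, minus strand), a gamma subunit with weaker benzodiazepine responses, had 11.58 TPM in pup 3 and 21.60 in pup 1, a mean of 16.6 ± 7.09 TPM (SD, n = 2). Gabrg1 and Gabrb2 stood sixth and seventh in both pups.

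**Figure D1:**
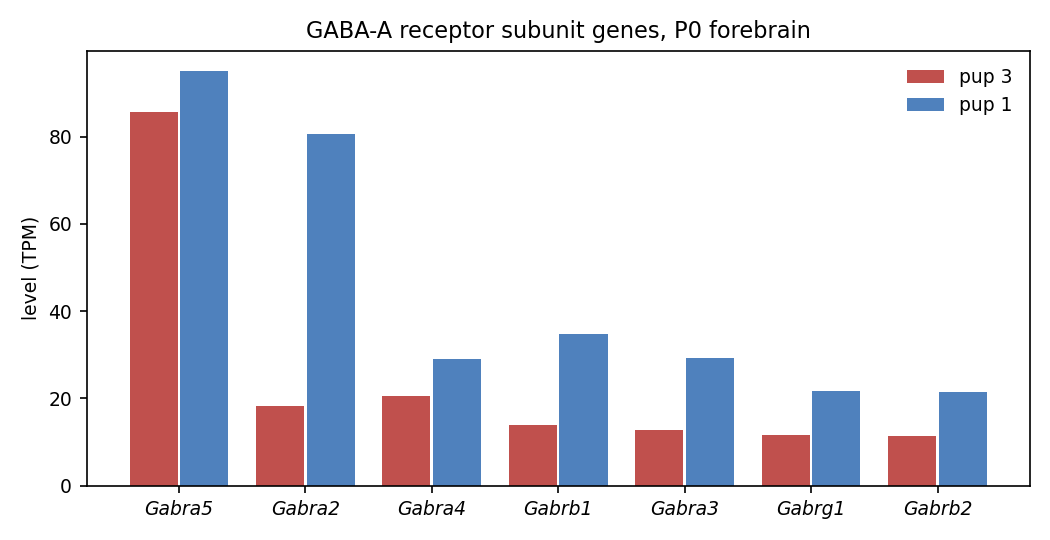
Level in TPM (vertical axis) of the 7 subunit genes in pup 3 (left bar) and pup 1 (right bar), ordered by their mean; each bar is 1 library. Gabra5 was at 85.67 TPM in pup 3 and 94.92 in pup 1, while Gabra2 was at 18.19 TPM in pup 3 and 80.59 in pup 1.

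By mean level the order was Gabra5, Gabra2, Gabra4, Gabrb1, Gabra3, Gabrg1 and Gabrb2. From Gabra2 downward, each gene overlapped its neighbour in range, so by that measure neighbours did not differ beyond the spread between pups. Genes of a library share that library's spread, however, and within each library Gabrb1 stood above Gabra3, Gabra3 above Gabrg1 and Gabrg1 above Gabrb2. In pup 3 the order was Gabra5, Gabra4, Gabra2, Gabrb1, Gabra3, Gabrg1, Gabrb2, and in pup 1 it was Gabra5, Gabra2, Gabrb1, Gabra3, Gabra4, Gabrg1, Gabrb2. These orders depend on the annotation. With the older release M4, Gabrb1 lay below Gabra3 in pup 3 (9.97 and 13.22 TPM) and in pup 1 (24.23 and 30.16 TPM). Gabrg1 lay below Gabrb2 there in pup 3 (10.27 and 11.97 TPM) and in pup 1 (18.06 and 22.32 TPM).

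The mix of the 4 alpha transcripts differed between the pups. Gabra5 made up 62.4% of their summed TPM in pup 3 and 40.6% in pup 1, a mean of 51.5% ± 15.4 (SD, n = 2). Gabra2 made up 13.3% in pup 3 and 34.5% in pup 1, so the share of Gabra5 was higher and that of Gabra2 lower in pup 3. Gabra3 held 9.37% in pup 3 and 12.5% in pup 1, and Gabra4 held 14.9% in pup 3 and 12.4% in pup 1. Within a library, Gabra5 stood 4.71-fold above Gabra2 in pup 3 and 1.18-fold above it in pup 1.

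Grouped by the codon shown above, the alpha genes with CAC (Gabra2, Gabra3 and Gabra5) together held 85.1% of the alpha TPM in pup 3 and 87.6% in pup 1, a mean of 86.3% ± 1.78 (SD, n = 2). This share varied far less between pups than the shares of Gabra5 and Gabra2 within it. By arithmetic it is what the share of Gabra4 leaves, so opposite shifts among Gabra5, Gabra2 and Gabra3 cancel in it. The CAC share covers the 4 alpha genes analysed here and counts RNA, not receptors. With the older annotation release M4 the mean was 90.6%, and Gabra4 was lower there, at 13.6 TPM in pup 3 and 19.16 in pup 1.

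Between the beta genes, the log2 ratio of Gabrb2 to Gabrb1 (TPM + 0.1) was -0.29 in pup 3 and -0.70 in pup 1, a mean of -0.49 ± 0.29 (SD, n = 2). Gabrb1 was thus above Gabrb2 in both pups, but this direction depended on the transcripts counted: the mean was 0.07 with release M4 and 2.06 when only transcripts with a full-length reading frame were counted.

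The second question the design allows is how far 2 forebrains of the same age and strain differed. The Xist and Y chromosome counts given above had the female pattern in pup 3 and the male pattern in pup 1. Each difference between the pups is therefore also one between these patterns, and the part of sex was not tested. Differences are log2 ratios of pup 3 over pup 1, with 1 added to each TPM, and negative values are lower in pup 3. With 1 animal on each side they have no replicate check and no test. In TPM all 7 subunit genes were lower in pup 3, although Gabra5 was slightly higher there in CPM, counts scaled to the library total without length correction (0.01), in FPKM (0.01), with TMM scaling (0.17) and with DESeq2 size factors (0.17). The members' median was -0.85. Over the 15463 genes averaging at least 1 TPM, the median was -0.24 and 79.6% were lower in pup 3, so TPM placed most genes lower in that pup. Relative to that median, 6 of the 7 members were lower and Gabra5 was higher by 0.09.

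Gabra2 had the greatest difference of the 7, with a log2 ratio of -2.09, or 4.25-fold lower in pup 3 on the TPM + 1 scale. The counts behind it were 2297 in pup 3 and 8702 in pup 1. In CPM it was 3.81-fold lower (exact 95% interval 3.64 to 3.99, counting error only). It was 1 of 18 genes over 4-fold lower in pup 3 among the 11477 genes that reached 5 TPM in either pup, which is 0.157% of them. Among the 10711 protein-coding genes of that set, 5 had a lower ratio than Gabra2, and 4 of those lie on the Y chromosome. Under each of the other units, scalings, annotations and transcript sets tried, its log2 ratio lay between -1.57 and -2.14.

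Gabrb1 followed with a log2 ratio of -1.25, from 1131 counts in pup 3 and 2481 in pup 1, or 2.21-fold lower in CPM (2.06 to 2.37). For Gabra3 the log2 ratio was -1.13, from 1257 counts in pup 3 and 2342 in pup 1, or 1.88-fold lower in CPM (1.75 to 2.01). Gabra2, Gabrb1 and Gabra3 were the 3 of 7 members over 2-fold lower in pup 3 and none was over 2-fold higher. Of the 11477 genes, 2.17% were over 2-fold lower and 0.331% over 2-fold higher. With TMM scaling, only Gabra2 stayed beyond 2-fold lower, beside 0.619% of the same genes, with Gabrb1 at -0.96 and Gabra3 at -0.73. With DESeq2 size factors the count was also 1.

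Gabrg1 and Gabrb2 had nearly equal log2 ratios, -0.85 and -0.84. Gabrg1 had 1351 counts in pup 3 and 2116 in pup 1, or 1.58-fold lower in CPM (1.47 to 1.69). Gabrb2 had 1278 counts in pup 3 and 2005 in pup 1, or 1.58-fold lower in CPM (1.47 to 1.70). Neither passed 2-fold in any setting. Gabra4 was nearer to the median of all genes, with a log2 ratio of -0.48 from 1548 counts in pup 3 and 1965 in pup 1, or 1.28-fold lower in CPM (1.19 to 1.37). Gabra5 had a log2 ratio of -0.15 from 6323.84 counts in pup 3 and 6219.63 in pup 1. Its CPM ratio of pup 3 over pup 1 was 1.01 (0.975 to 1.05), an interval that includes no difference. Without Gabra5, the summed level was 88.55 TPM in pup 3 and 216.56 in pup 1, 2.45-fold lower in pup 3, against 1.79-fold lower for all 7.

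**Figure D2:**
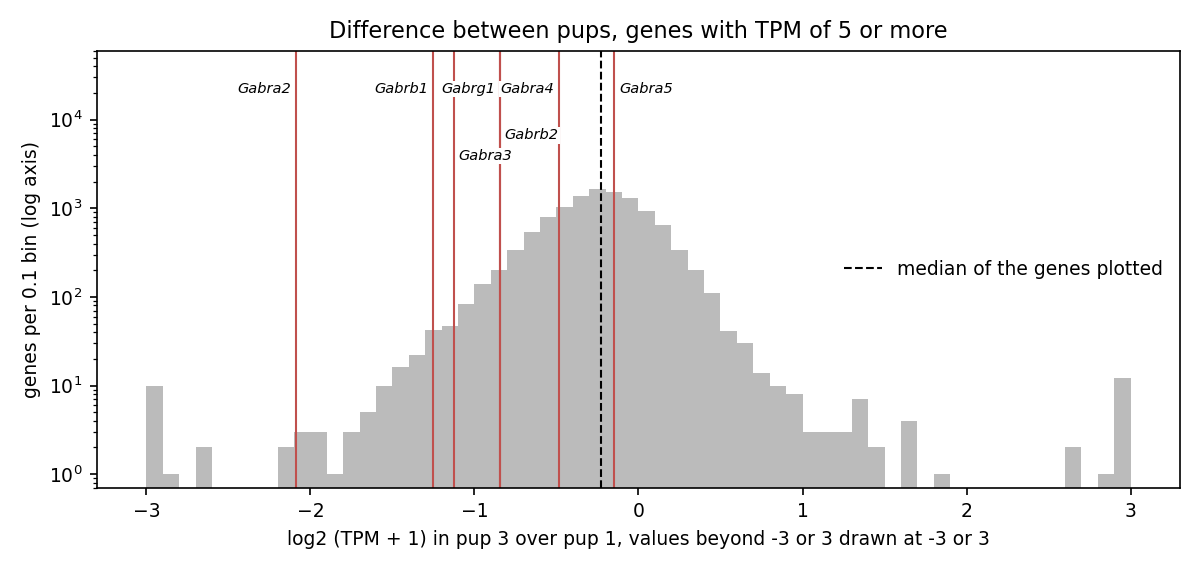
Number of genes (vertical log axis) by log2 ratio of pup 3 over pup 1 (horizontal axis) for the 11477 genes that reached 5 TPM in either pup; red lines mark the 7 subunit genes and the dashed line the median of the genes plotted. Gabra2, at -2.09, lies in the sparse left tail, and Gabra5, at -0.15, lies right of the dashed line.

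Transcript length moved with the difference between libraries. Across 13474 protein-coding genes averaging at least 1 TPM, the log2 ratio and transcript length had a Spearman rho of -0.50, a description across genes that share the same libraries, and longer genes tended to be lower in pup 3. The 7 subunit genes had mean transcript lengths from 2608 to 4313 bases, Gabra5 being the shortest and Gabra2 the longest. These lengths are averages over a gene's transcripts weighted by TPM. For Gabrb1, at 2847 bases in pup 3, most expected counts were assigned to a transcript of 13737 bases. Protein-coding genes of 2000 to 5000 bases had a median log2 ratio of -0.31 (n = 5724), and 2.06% of them were over 2-fold lower in pup 3. The part of length in the members' differences was not tested.

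**Figure D3:**
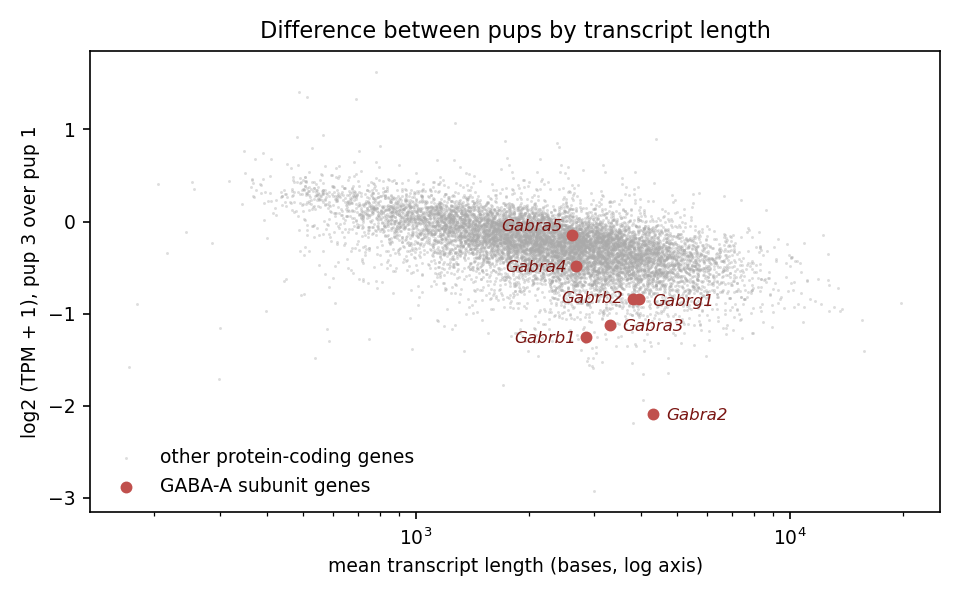
Log2 ratio of pup 3 over pup 1 (vertical axis) against mean transcript length in bases (horizontal log axis) for protein-coding genes that reached 5 TPM in either pup (grey points, log2 ratios over 3 in size not drawn) and the 7 subunit genes (red). Gabra5, at 2608 bases, lies within the mass of genes of its length, and Gabra2, at 4313 bases, lies below nearly all of them.

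Fewer cells of a type and less RNA per cell cannot be told apart in such bulk libraries. Some regional markers differed in the same direction as the subunit genes. The 7 thalamus markers summed to 156 TPM in pup 3 and 367 in pup 1. In TPM, 4 of the 7 were over 2-fold lower in pup 3, beside 2.17% of the 11477 genes. Marker calls were not repeated with TMM scaling. The median log2 ratio of the thalamus markers was -1.0, from -1.94 for Lhx9 to -0.08 for Prkcd, which lay above the median of all genes. Tcf7l2, a transcription factor of thalamic neurons, had 89.58 TPM in pup 3 and 233.2 in pup 1, and Lhx9 had 5.05 TPM in pup 3 and 22.14 in pup 1. The 7 hypothalamus markers, 5 of them detected in both pups, summed to 82.9 TPM in pup 3 and 176 in pup 1, mostly from Avp, the vasopressin gene, with 66.03 TPM in pup 3 and 149.75 in pup 1. Of the 3 hypothalamus markers that reached 5 TPM in either pup, 1, Avp, was over 2-fold lower in pup 3, again beside 2.17% of the 11477 genes.

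As a list, markers of telencephalon did not share that direction, with a median log2 ratio of -0.01. Neurod6, a factor of cortical excitatory neurons, had 315.67 TPM in pup 3 and 196.84 in pup 1, while Emx2 had 3.75 TPM in pup 3 and 9.26 in pup 1. Pan-neuronal markers summed to 3223 TPM in pup 3 and 3767 in pup 1, with a median log2 ratio of -0.41. Markers of GABAergic neurons summed to 566 TPM in pup 3 and 649 in pup 1, and none of them was over 2-fold apart. Their median log2 ratio was -0.49, with 5 of 7 below the median of all genes, and most of the sum was Sst, a somatostatin gene with 407.55 TPM in pup 3 and 425.97 in pup 1. Those of radial glia and astrocytes summed to 2717 TPM in pup 3 and 2665 in pup 1, mostly from Fabp7, a radial glial gene with 2326.38 TPM in pup 3 and 2151.18 in pup 1. The median log2 ratio of that list was -0.38, and 4 of 6 lay below the median of all genes. The part of tissue composition in the differences of the subunit genes was not tested, nor was that of sex, for the X-linked Gabra3 or for the other members.

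Marker lists of other cells were summed in the same way. Oligodendrocyte precursor markers summed to 126 TPM in pup 3 and 149 in pup 1, microglial markers to 129 TPM in pup 3 and 124 in pup 1, and choroid plexus markers to 1074 TPM in pup 3 and 1371 in pup 1. The median log2 ratio was -0.37 for oligodendrocyte precursor, -0.07 for microglial and -0.38 for choroid plexus markers.

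In the deposited estimates, the TPM of the 7 genes was not all assigned to transcripts with a full reading frame. These estimates divide reads among a gene's annotated transcripts, and the division was not checked in another way. Release M21 lists 28 transcripts for them, of which 12 have a full-length frame, taken as a complete coding sequence of at least 80% of the gene's longest. In all 7 genes the same transcript had the highest TPM in both pups, and in 4 of the 7 it had a full-length frame. With release M4, which lists 1 transcript each for Gabra2, Gabra4, Gabra5, Gabrb1 and Gabrg1, the same leading transcript was found for 3 genes.

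For Gabra2 the leading transcript was Gabra2-204, annotated as a target of nonsense-mediated decay, with 8.35 TPM in pup 3 and 48.87 in pup 1. The deposited tables gave it 45.93% of the gene's TPM in pup 3 and 60.64% in pup 1. Gabra2-203, the only Gabra2 transcript with a full-length frame, had 7.84 TPM in pup 3 and 25.25 in pup 1. Its log2 ratio on the TPM + 1 scale was -1.57, so the lower Gabra2 level in that pup was present in both leading transcripts. Counting full-length frames alone, Gabra2 lay below Gabra3 in mean level, at 16.5 and 19.0 TPM.

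Gabra5 was the simplest case, since its 3 transcripts share a full-length frame. Gabra5-202 had 44.56 TPM in pup 3 and 49.62 in pup 1, and Gabra5-201 had 35.39 TPM in pup 3 and 39.22 in pup 1. Gabra3 was led by Gabra3-201, with 11.51 TPM in pup 3 and 23.84 in pup 1. Gabra3 transcripts with a full-length frame held 96.3% of the gene's TPM in pup 3 and 87.5% in pup 1. Gabra4 was divided more evenly: Gabra4-201, which has a full-length frame, had 8.81 TPM in pup 3 and 11.53 in pup 1, and Gabra4-202, annotated for nonsense-mediated decay, had 4.45 TPM in pup 3 and 8.25 in pup 1.

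The beta genes had opposite profiles. Gabrb1-202, a fragment of 799 bases with an incomplete frame, had 11.78 TPM in pup 3 and 29.27 in pup 1, whereas Gabrb1-201, of 13737 bases and with the full frame, had 2.21 TPM in pup 3 and 5.47 in pup 1. By expected counts, however, the order was the reverse: Gabrb1-201 had 888.47 in pup 3 and 1946.05 in pup 1, and Gabrb1-202 had 242.53 in pup 3 and 534.95 in pup 1. Most expected counts of Gabrb1 were thus assigned to the long transcript and most of its TPM to the short one. For Gabrb2, Gabrb2-201 had 10.97 TPM in pup 3 and 19.26 in pup 1, and full-length frames held 99.6% of the TPM in pup 3 and 90.8% in pup 1. In full-length frames alone, Gabrb2 had 11.4 TPM in pup 3 and 19.4 in pup 1.

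Gabrg1 was led by Gabrg1-203, whose frame lacks its start in the annotation, with 6.47 TPM in pup 3 and 12.20 in pup 1. Gabrg1-201, its single full-length transcript, had 5.11 TPM in pup 3 and 7.78 in pup 1.

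**Figure D4:**
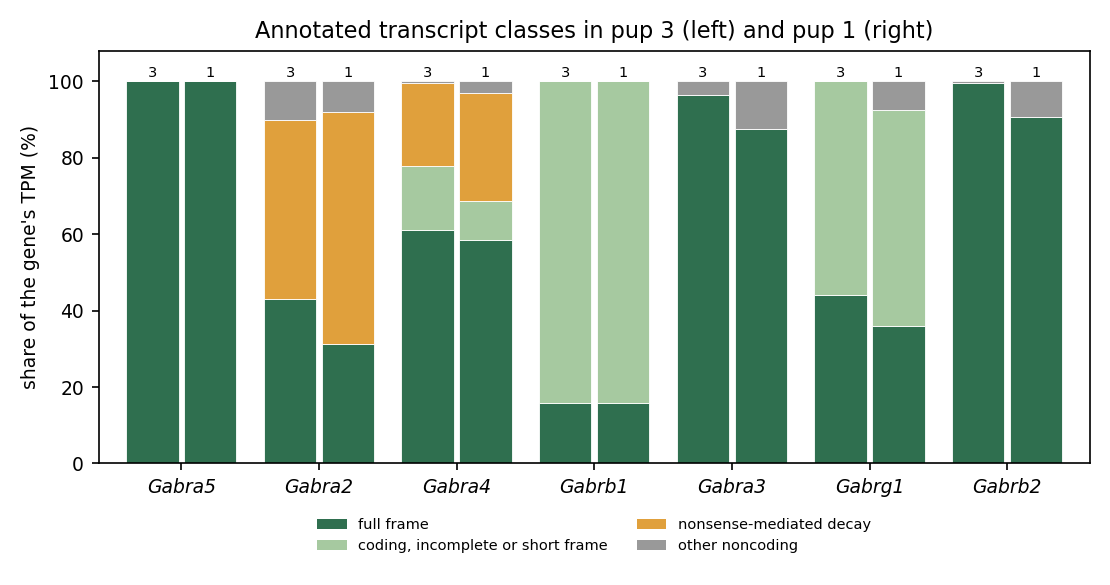
Share of each gene's TPM (vertical axis, percent) by annotated class of transcript, with pup 3 left of pup 1 for each gene and genes ordered by mean level. Full-length frames (dark green) hold all of Gabra5 in both pups, but 43.1% of Gabra2 in pup 3 and 31.3% in pup 1, and 15.8% of Gabrb1 in pup 3 and 15.7% in pup 1.

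On the chromosome, 4 of the 7 genes form 1 cluster. Gabrg1, Gabra2, Gabra4 and Gabrb1 follow each other on chromosome 5 within 1398 kb, with 115 kb between Gabrg1 and Gabra2 and 474 kb between Gabra2 and Gabra4. Their log2 ratios in that order were -0.85, -2.09, -0.48 and -1.25, so neighbours in the cluster did not share one size of difference. Gabra4 and Gabrb1 lie head to head on opposite strands and overlap by 196 bases, of which 46 are exonic in both. Gabra5 shares 148 exonic bases, 4.98% of its exons, with a gene on the opposite strand. The labels do not say whether strand was kept, and without it reads from such overlaps cannot be told apart. Gabra2, Gabra3, Gabrb2 and Gabrg1 share no exonic base with another gene.

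The promoters of the genes with the greatest and the smallest difference between pups are given as windows of 300 bases around the gene start, from RefSeq on GRCm38.p6. They are shown because these genes lie at the ends of the members' range. Capitals mark GGGCGG, the GC box, on either strand.

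Gabra2: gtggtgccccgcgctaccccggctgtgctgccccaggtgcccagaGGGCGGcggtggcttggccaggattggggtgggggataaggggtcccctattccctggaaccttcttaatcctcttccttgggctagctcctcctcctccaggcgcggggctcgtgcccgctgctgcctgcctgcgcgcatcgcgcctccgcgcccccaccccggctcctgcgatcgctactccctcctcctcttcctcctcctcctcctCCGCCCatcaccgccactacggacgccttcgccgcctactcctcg
Gabra5: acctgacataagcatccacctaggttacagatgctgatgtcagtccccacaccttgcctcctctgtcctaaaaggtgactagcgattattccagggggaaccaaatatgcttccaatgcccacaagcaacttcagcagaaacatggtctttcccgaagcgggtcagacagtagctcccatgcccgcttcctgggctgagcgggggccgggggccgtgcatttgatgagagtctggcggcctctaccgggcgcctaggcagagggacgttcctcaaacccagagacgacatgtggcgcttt

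The Gabra2 window (chr5:71095800-71096099, minus strand) held 25 CpG dinucleotides, 70.0% G and C, 2 GC boxes and no TATAAA. The Gabra5 window (chr7:57510010-57510309, minus strand) held 13 CpG, 56.7% G and C and neither motif. Over 32851 promoter windows of 300 bases, the median was 7 CpG, 35.7% held GGGCGG and 13.6% held TATAAA on either strand. These letters describe the windows alone.

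Among 8 other subunit genes examined, Gabrg3, a further gamma subunit, was the only 1 detected in both pups, with 6.02 TPM in pup 3 and 7.97 in pup 1. Gabrq, the theta subunit, had 0.79 TPM in pup 3 and 1.51 in pup 1. Gabre, the epsilon subunit, had 3 counts in pup 3 and 32 in pup 1. Gabra6, an alpha subunit of cerebellar granule cells, had 0.03 TPM in pup 3 and 0.15 in pup 1. Gabrp and the rho subunit genes Gabrr1, Gabrr2 and Gabrr3 were at 0.2 TPM or less in both pups.

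Genes that anchor and move the receptor formed a list of 17. All 17 were detected in both pups, and their median log2 ratio was -0.46, with 11 of 17 below the median of all genes. Gabarap, which binds gamma subunits and microtubules, had 531.45 TPM in pup 3 and 474.21 in pup 1. Its relatives Gabarapl2, with 384.61 TPM in pup 3 and 404.36 in pup 1, and Gabarapl1, with 193.55 TPM in pup 3 and 227.88 in pup 1, followed. All 3 also serve autophagy. Hap1, a trafficking adaptor, had 104.25 TPM in pup 3 and 195.47 in pup 1.

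Gphn encodes gephyrin, the scaffold of inhibitory synapses, and had 33.32 TPM in pup 3 and 37.36 in pup 1. Lhfpl4, which links receptors to neuroligin 2, was the 1 of 17 over 2-fold lower in pup 3, beside 2.17% of the 11477 genes. It had 21.21 TPM in pup 3 and 44.21 in pup 1. Its log2 ratio in TPM, -1.03, was close to the 2-fold limit, and the call was not repeated with TMM scaling. Gphn and Lhfpl4 were named after their values were seen.

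The 12 genes for GABA supply, uptake, GABA-B receptors and chloride transport were all detected in both pups and all lay below the median ratio of all genes, with a median log2 ratio of -0.51. Gad1, which makes GABA, had 71.19 TPM in pup 3 and 100.58 in pup 1. Gabbr1, a GABA-B receptor subunit, had 46.18 TPM in pup 3 and 66.22 in pup 1, and Abat, which degrades GABA, had 43.63 TPM in pup 3 and 57.32 in pup 1. Gad1, Gabbr1 and Abat were each lower in pup 3 in TPM.

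Of 11 genes on that list that reached 5 TPM in either pup, only Gabbr2 was over 2-fold lower in pup 3, beside 2.17% of the 11477 genes. Gabbr2, the partner of Gabbr1, had 5.09 TPM in pup 3 and 12.16 in pup 1. Its log2 ratio in TPM was -1.11, and the call was not repeated with TMM scaling. Slc12a5, the chloride exporter KCC2 of maturing neurons, had 19.47 TPM in pup 3 and 34.37 in pup 1. Slc12a2, the chloride importer NKCC1, had 3.82 TPM in pup 3 and 4.98 in pup 1. Slc12a5 was thus the higher of the pair in both pups. Gabbr2, Slc12a5 and Slc12a2 were named after their values were seen.

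**Figure D5:**
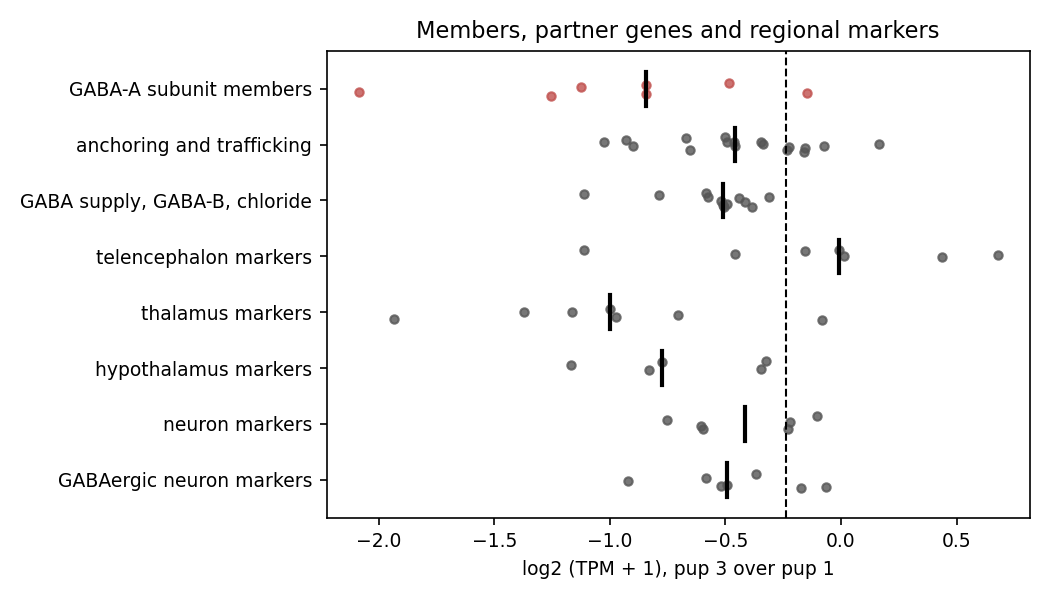
Log2 ratio of pup 3 over pup 1 (horizontal axis) for the 7 subunit genes (red) and for genes averaging at least 1 TPM in 7 other lists (grey); each point is a gene, black bars are list medians and the dashed line is the median of all genes, -0.24. The subunit genes have a median of -0.85, thalamus markers -1.0 and telencephalon markers -0.01.

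By level in the 2 libraries, the protein-coding genes most like the sum of the 7 subunits included Srrm2 and Tmod2. Srrm2 had 173.68 TPM in pup 3 and 316.91 in pup 1, at a Euclidean distance of 0.0253 in log2(TPM + 1). Those most like Gabra5 were Jund, Cdip1 and Shd, with Jund at 85.89 TPM in pup 3 and 94.31 in pup 1 and a distance of 0.00990. Likeness over 2 libraries describes level and nothing more.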

How the data were processed

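PolyA RNA-seq was measured in 2 libraries of P0 forebrain, each from 1 pup. The authors deposited gene and transcript tables for mm10 with annotation releases M21 and M4, per the README text. They hold estimated counts (expected counts), as the authors deposited them, per gene and transcript with reads of several possible origins divided among them. Beside them stand the deposited TPM (point estimates and posterior means), the deposited FPKM, and the deposited percent of the gene's TPM held by each transcript. Aligner and quantifier were not given in the sources used here. Column names follow RSEM's.

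The M21 TPM was used, with M4 as an alternative. All 55536 gene IDs matched a symbol in the annotation. The members and lists were chosen with earlier results of these data known. With 1 group of 2 pups no p-value was computed; an exact two-sided sign-flip test could not go below 0.5. Pup differences used log2(TPM + 1), pup 3 over pup 1, among genes that reached 5 TPM in either pup, and 2-fold or 4-fold as limits of size. Exact 95% intervals of count ratios were taken from rounded counts and address counting error only. Reads carry no molecular identifiers, so repeated copies of a molecule were not removed and the intervals can be too narrow even for that error. Having 2 libraries with about equal depth limits the precision more than the counts do. Scaling alternatives used edgeR 4.0.16 (TMM) and DESeq2 1.42.0 size factors on rounded counts; other alternatives changed the unit, pseudocount, annotation, transcript set and replicate. Other software was Python 3.11.15, pandas 2.3.3, scipy 1.17.1 and R 4.3.3. The ratio step was tested on simulated data. Named genes were the 7 members, the 3 nearest protein-coding genes to the members' sum and to the highest member, and from each list the 4 highest by mean TPM and any under a TPM of 1; marker genes named were chosen after their values were seen. Some genes that this rule names are not reported here. Subunit residues were read as codons in transcript sequences, not from protein sequences as first planned. Promoters are RefSeq's.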

Additional observations from a re-analysis of the deposited data

How the results depend on the processing

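No paired analysis was possible because the 2 libraries form 1 group. The summed level and the share of Gabra5 moved by less than the spread between pups under every other unit, annotation and transcript set run. That spread is wide, with an SD of 97.1 TPM for the sum and 15.4 for the share. Full-length frames alone gave a mean sum of 166 TPM against 243, and a mean Gabra5 share of 65.4% against 51.5%. Leaving out 1 of 2 pups cannot exceed that spread and shows nothing about it. With release M4, the share of alpha TPM with CAC was 90.6%, the log2 ratio of Gabrb2 to Gabrb1 was 0.0717, 5 members changed place in the order by level, and 3 of 7 leading transcripts were kept. Counting only full-length reading frames, an alternative chosen after seeing the data, gave 89.5%, 2.06, 5 changed places and a median pup log2 ratio of -0.72; the low TPM of Gabrb1 there comes from leaving out Gabrb1-202. Posterior mean TPM changed 2 places, transcripts of 500 bases or more changed 2, and leaving out 1 pup changed 2 to 3. The members' median log2 ratio of -0.85 was -0.64 in CPM, -0.67 in FPKM, -0.61 relative to the all-gene median, and -0.49 with TMM scaling or DESeq2 size factors; the median of all genes was -0.24 in TPM and 0.03 with TMM, so scaling moved both. Members over 2-fold lower numbered 3 in TPM and 1 with TMM or DESeq2 size factors. Over single genes, 92 alternative values stayed within their limit and 48 moved. For levels and shares the limit was the spread between pups, and for pup ratios it was counting error alone. The 92 include settings that leave out a pup, which cannot exceed the spread. Gabra5 turned from -0.15 to between 0.01 and 0.17 in CPM, FPKM, TMM, DESeq2 size factors and relative to the all-gene median. Gabra3 was no longer over 2-fold lower in those 5 settings and in full-length frames, nor Gabrb1 with TMM or DESeq2 size factors. Leaving out a pup gives no ratio between pups. The cause of the other shifts was not tested. With 1 animal on each side of a ratio, the number of animals limits these results.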
